A study of Mus musculus with 54 samples.

Results

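The comparison described here set iILC2 KO against nILC2 KO, that is, group 2 innate lymphoid cells (ILC2s) of either label from the small intestine of mice with the Rxrg gene targeted. Its members were the 4 iILC2 KO and 4 nILC2 KO libraries, 8 of the 54 samples in the series and 8 of the 16 libraries in the same expression table, with all 10176 genes listed there. All 16 libraries came from C57BL/6 mice aged 8 to 12 weeks. Their labels name IL-25 and 48 h throughout, so both groups compared had the same labelled treatment. The other 8 were 4 iILC2 CTRL and 4 nILC2 CTRL libraries of the WT genotype, used to share the estimate of spread and to set the difference between the cell types beside that in WT mice. The series text writes the genotypes as Rxrg+/+ and Rxrg-/-, while the table's name calls the mutant a conditional knockout, so the allele and the cells that lack it are not settled by the sources used here. The labels describe each library as pooled male and female mice, and nothing says that the 4 libraries of a group came from separate animals, so p-values measure the spread between these libraries.

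ILC2s are tissue lymphocytes that lack antigen receptors and secrete type 2 cytokines when epithelial cells release IL-25, IL-33 or TSLP. In mice, natural ILC2s (nILC2s) are described as tissue resident and responsive to IL-33, while inflammatory ILC2s (iILC2s) appear after IL-25 as dividing, migratory cells with high KLRG1, little of the IL-33 receptor and little surface Thy1. What the prefixes n and i stand for is not written in the labels, and they give no gate. Rxrg encodes retinoid X receptor gamma, a nuclear receptor that pairs with partners such as the PPAR, LXR and retinoic acid receptors to regulate lipid genes. RNA was read with Smart-seq2, a full-length method for few cells, and values are TPM, a transcript level that is scaled for gene length and for the size of each library.

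Rxrg was low in every KO library. It had 0.26, 0.48, 0 and 0.38 TPM in iILC2 KO, against 2.58, 1.76, 1.27 and 3.12 TPM in nILC2 KO. The groups did not overlap, and the nILC2 KO mean was 7.79-fold higher than that of iILC2 KO (0.280 ± 0.207 TPM in iILC2 KO and 2.18 ± 0.826 TPM in nILC2 KO, SD, n = 4 each; two-sided exact permutation p = 0.0286, the smallest that 4 against 4 libraries allow). The KO means were 5.79-fold lower in iILC2 and 6.90-fold lower in nILC2 than those of the CTRL libraries. Rxrg was above 0 in 7 of the 8 KO libraries, and the difference between iILC2 KO and nILC2 KO concerns that remainder.

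Before the results, 3 features of the libraries need stating. Depth is unknown, since TPM keep no read total. In the KO libraries the listed genes added up to 849733 to 880929 TPM. Genes at 1 TPM or more numbered 9530 to 9595 in iILC2 KO and 9792 to 9842 in nILC2 KO, without overlap. The CTRL libraries had 9546 to 9605 in iILC2 and 9787 to 9864 in nILC2. The part of this in the genes near 0 TPM in iILC2 KO was not tested. Summed transcripts of the Y-linked genes Eif2s3y, Ddx3y, Kdm5d and Uty were at most 0.05 TPM in replicates 1 and 2 of both groups, against 93.4 to 124 TPM in replicates 3 and 4 of both, which goes against a pool of both sexes in every library but is balanced between the groups. Replicate 1 of nILC2 KO stood apart from its group. On the first principal component of the 16 libraries, which held 60.2% of the variance, it scored -39.3, within the range of the nILC2 CTRL libraries (-47.5 to -35.4), while the other nILC2 KO libraries scored -22.9, -16.3 and -23.0 and the iILC2 KO libraries scored 30.8 to 34.0. Results that rest on it are given without it.

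Many genes differed between the cell types in KO mice. A gene was called at a Benjamini-Hochberg adjusted p under 0.05 over the 10069 genes tested with limma, on log2(TPM + 1), a scale that understates changes of genes with few TPM. On that rule 1391 genes (13.8%) were higher and 1770 (17.6%) were lower in iILC2 KO than in nILC2 KO, 31.4% of all tested, with a median log2 fold change of -0.045 over all genes. At a change of at least 2-fold, 208 genes (2.07%) were higher and 505 (5.02%) were lower. The 4 iILC2 KO libraries lay wholly above the 4 nILC2 KO libraries for 1440 genes (14.3%) and wholly below for 1637 (16.3%). These shares are the background against which the gene groups below are read, and the bar plot of list members called shows them as dotted lines.

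**Figure D1:**
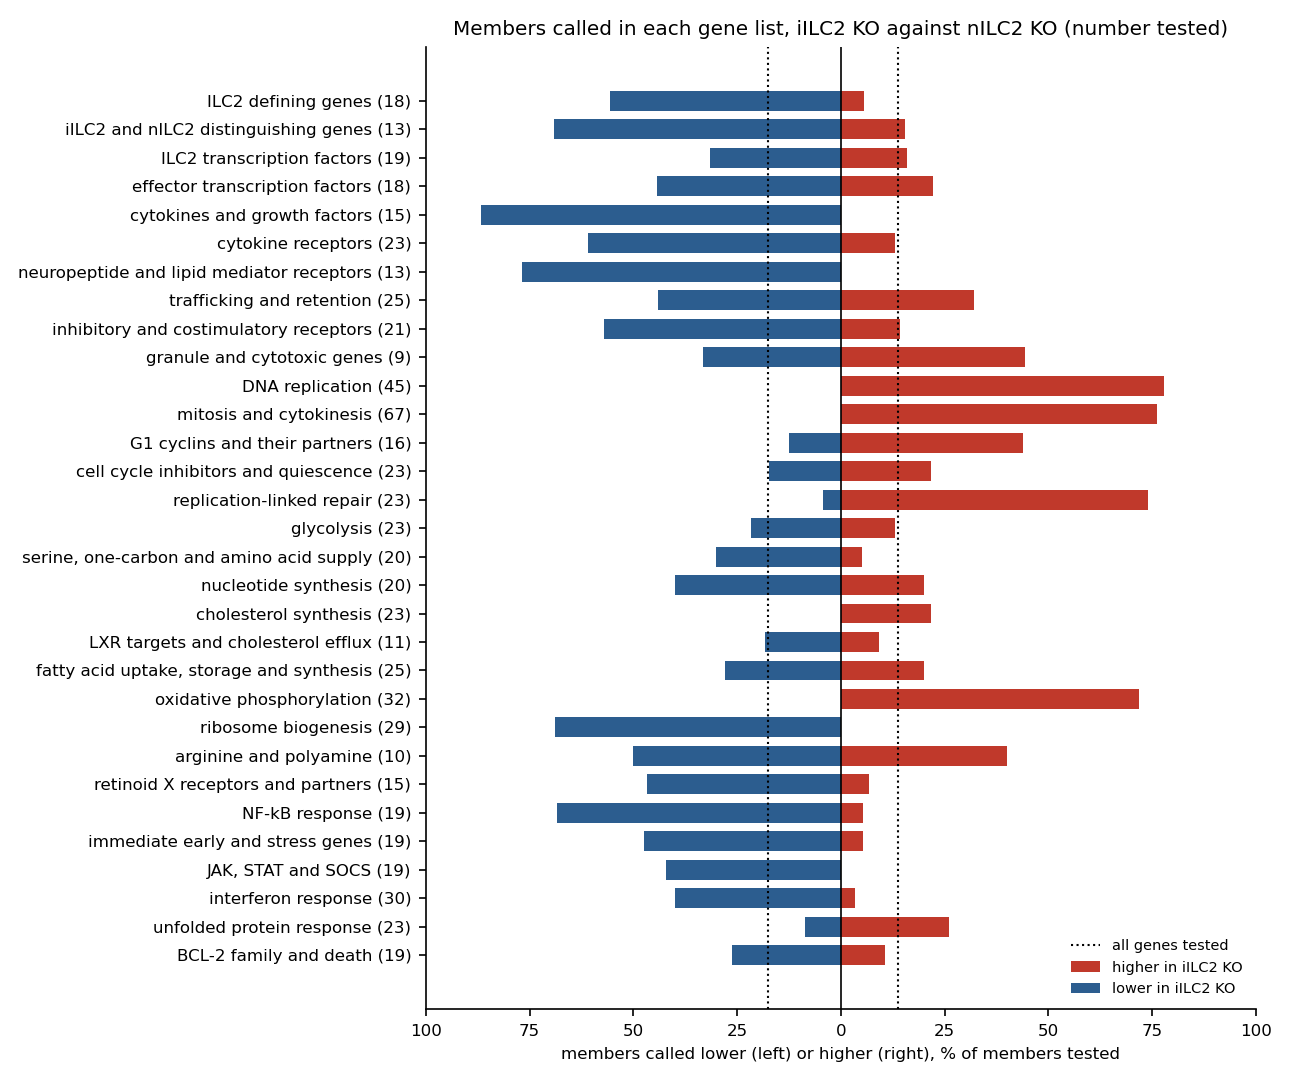
Share of the tested members of each gene list called higher (right, red) or lower (left, blue) in iILC2 KO than in nILC2 KO, in percent, with the number tested in brackets. The dotted lines mark the shares over all genes tested, 13.8% higher and 17.6% lower; the cell cycle and oxidative phosphorylation lists reach far to the right and the cytokine, receptor and ribosome biogenesis lists far to the left.

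The genes that identify ILC2s separated the groups on both sides of the label. Il1rl1, which encodes the IL-33 receptor ST2, had 3.19, 4.11, 2.22 and 4.97 TPM in iILC2 KO, against 60.8, 36.4, 23.4 and 46.95 TPM in nILC2 KO. Every iILC2 KO library was below every nILC2 KO library (log2 fold change -3.17 ± 0.29 SE, adjusted p = 1.9e-07). Klrg1, the inhibitory receptor used to identify iILC2s, was high in both groups, at 589 ± 45.7 TPM in iILC2 KO and 603 ± 35.2 TPM in nILC2 KO, and was not called (adjusted p = 0.76), although quantile normalization called it lower in iILC2 KO by 0.31 on the log2 scale (adjusted p = 0.022). Il17rb, the IL-25 receptor subunit that binds the cytokine, was at 114 ± 10.01 TPM in iILC2 KO and 209 ± 25.5 TPM in nILC2 KO and fell (log2 fold change -0.87 ± 0.1 SE, adjusted p = 2.8e-06). Il17ra, its partner chain, rose and is named here after its values were seen, with 72.7 ± 4.58 TPM in iILC2 KO and 41.8 ± 6.55 TPM in nILC2 KO (log2 fold change 0.79 ± 0.11 SE, adjusted p = 1.7e-05). Thy1 had 43.6, 47.2, 34.9 and 43.2 TPM in iILC2 KO, against 19.97, 20.6, 14.2 and 21.6 TPM in nILC2 KO. Its transcripts were higher in every iILC2 KO library (log2 fold change 1.11 ± 0.21 SE, adjusted p = 0.00043), the opposite of the low surface Thy1 by which iILC2s are described, and surface protein was not measured here.

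Of 18 ILC2 defining genes tested, 1 rose and 10 fell, with a median log2 fold change of -0.69. Icos, a costimulatory receptor of ILC2s, was at 189 ± 21.8 TPM in iILC2 KO and 189 ± 23.02 TPM in nILC2 KO and did not differ beyond the spread of the libraries (log2 fold change 0.0009 ± 0.12 SE, adjusted p = 1). Gata3, the lineage factor of ILC2s, had 169 ± 9.26 TPM in iILC2 KO and 218 ± 25.4 TPM in nILC2 KO and fell by less than most (log2 fold change -0.36 ± 0.085 SE, adjusted p = 0.0032). Rora, another factor required for ILC2 development, was at 91.05 ± 8.32 TPM in iILC2 KO and 115 ± 29.7 TPM in nILC2 KO and was not called (adjusted p = 0.095), while the fit with same-numbered libraries paired gave adjusted p = 0.037 and the fit without nILC2 KO replicate 4 gave 0.026. The largest falls in the list were in receptors. Il2ra, the high-affinity chain of the IL-2 receptor, had 2.59, 3.08, 2.54 and 2.19 TPM in iILC2 KO, against 56.6, 45.8, 28.8 and 40.1 TPM in nILC2 KO. Il7r, the IL-7 receptor chain that innate lymphoid cells depend on, had 65.9, 47.2, 27.5 and 21.4 TPM in iILC2 KO, against 379, 233, 168 and 194 TPM in nILC2 KO. Both were lower in every iILC2 KO library (log2 fold change -3.57 ± 0.18 SE, adjusted p = 1.4e-10 for Il2ra and log2 fold change -2.62 ± 0.29 SE, adjusted p = 1.7e-06 for Il7r), and nILC2 KO replicate 1 was the highest of all for both.

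**Figure D2:**
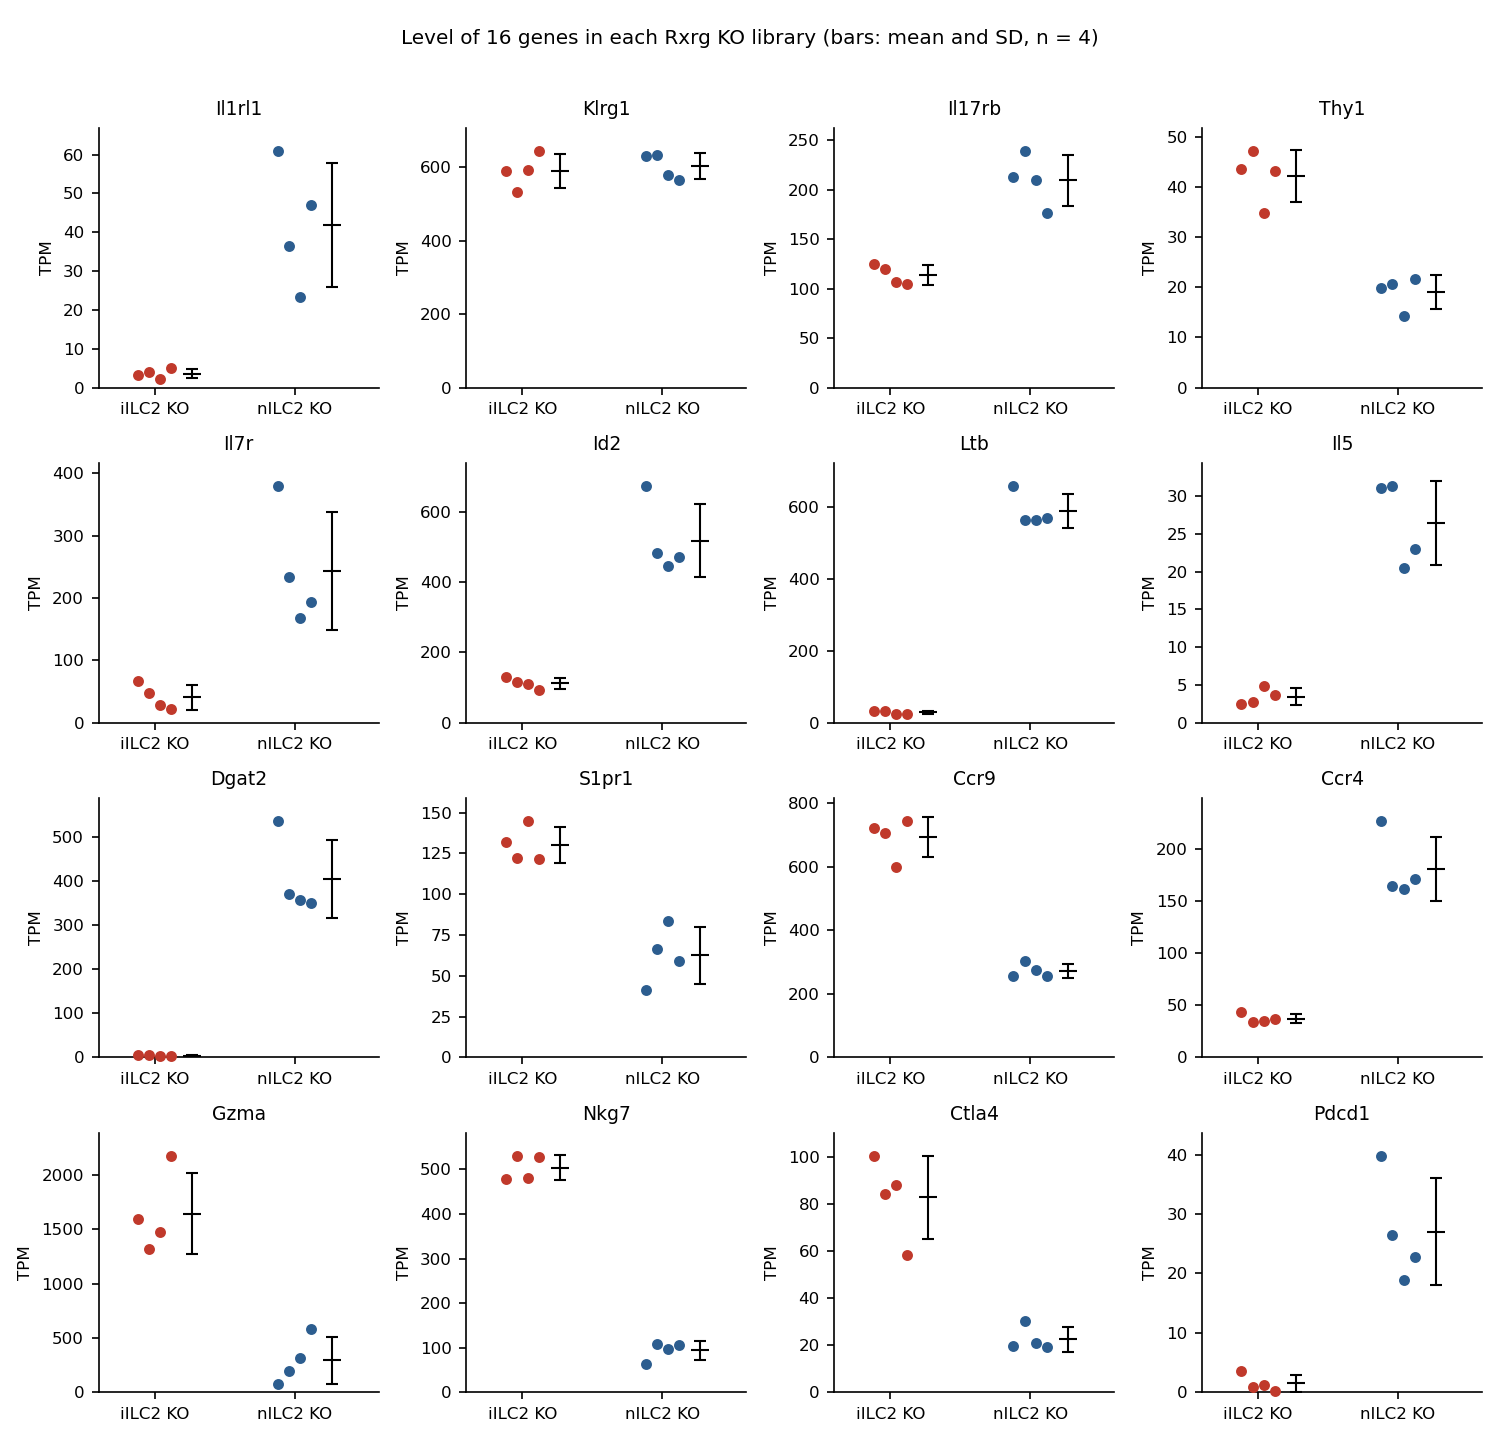
Level in TPM (linear axis from 0) of 16 genes in each of the 4 iILC2 KO libraries (left, red) and 4 nILC2 KO libraries (right, blue), with the mean and SD beside the points. The groups overlap for Klrg1 but for none of the other 15 genes shown. The leftmost blue point, nILC2 KO replicate 1, is farthest from the iILC2 KO points for Il1rl1, Il7r, Id2, Ltb, Dgat2, S1pr1, Ccr4, Gzma, Nkg7 and Pdcd1, and by a small margin for Ccr9.

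Transcription factors of the lineage mostly did not pass the test or fell. Of 19 ILC2 transcription factors tested, 3 rose (15.8%), 6 fell (31.6%) and 10 were not called, against 13.8% and 17.6% of all genes. Id2, which blocks E proteins and is needed for all innate lymphoid cells, had 131, 116, 109 and 93.2 TPM in iILC2 KO, against 675, 483, 446 and 474 TPM in nILC2 KO. It was 4.62-fold higher in nILC2 KO (log2 fold change -2.19 ± 0.11 SE, adjusted p = 2e-10). Tcf7, which encodes TCF-1, an early factor of the lineage, was 8.31 ± 2.85 TPM in iILC2 KO and 44.5 ± 9.42 TPM in nILC2 KO and fell (log2 fold change -2.31 ± 0.21 SE, adjusted p = 1.9e-07). Runx3 rose, with 39.6 ± 5.59 TPM in iILC2 KO and 22.4 ± 6.096 TPM in nILC2 KO (log2 fold change 0.82 ± 0.19 SE, adjusted p = 0.0028). Among 18 effector factors, 4 rose (22.2%) and 8 fell (44.4%). Id3, a relative of Id2, rose to 18.5, 17.0, 22.2 and 23.2 TPM in iILC2 KO, against 0.20, 2.31, 7.53 and 4.15 TPM in nILC2 KO (log2 fold change 2.54 ± 0.43 SE, adjusted p = 0.00021). Bhlhe40, a factor of cytokine-producing lymphocytes, went the other way with 2.71 ± 1.14 TPM in iILC2 KO and 18.6 ± 5.12 TPM in nILC2 KO (log2 fold change -2.43 ± 0.31 SE, adjusted p = 9.7e-06). Batf, an AP-1 factor reported to be needed for iILC2s in mice, was abundant in both and fell, with 241 ± 11.6 TPM in iILC2 KO and 363 ± 21.6 TPM in nILC2 KO (log2 fold change -0.59 ± 0.088 SE, adjusted p = 5.3e-05). Maf rose modestly, at 41.9 ± 2.78 TPM in iILC2 KO and 27.1 ± 2.63 TPM in nILC2 KO (log2 fold change 0.61 ± 0.10 SE, adjusted p = 0.00019).

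Cytokine genes were lower in iILC2 KO almost without exception. Of 15 cytokine and growth factor genes tested, 13 fell and none rose, and their median log2 fold change was -1.40. Without nILC2 KO replicate 1, 12 fell. Il5, the eosinophil growth factor, had 2.5, 2.71, 4.87 and 3.66 TPM in iILC2 KO, against 31.1, 31.3, 20.5 and 23.02 TPM in nILC2 KO. The groups were far apart (log2 fold change -2.64 ± 0.20 SE, adjusted p = 2.1e-08). Il13, by contrast, was low in both, with 1.67, 3.97, 4.95 and 5.23 TPM in iILC2 KO, against 4.13, 3.3, 4.05 and 5.88 TPM in nILC2 KO, and the groups overlapped (adjusted p = 0.72). Il4 was at 53.7 ± 5.63 TPM in iILC2 KO and 93.98 ± 11.4 TPM in nILC2 KO and fell (log2 fold change -0.79 ± 0.12 SE, adjusted p = 5.2e-05). Il6 had 6.44 ± 3.03 TPM in iILC2 KO and 21.4 ± 2.93 TPM in nILC2 KO and fell (log2 fold change -1.70 ± 0.26 SE, adjusted p = 7.8e-05). Areg, the growth factor amphiregulin, was near the low end, at 0.53 ± 0.471 TPM in iILC2 KO and 5.35 ± 2.48 TPM in nILC2 KO (log2 fold change -2.02 ± 0.33 SE, adjusted p = 0.00014). Calca, which encodes the neuropeptide CGRP, was at 0.718 ± 0.674 TPM in iILC2 KO and 5.305 ± 1.95 TPM in nILC2 KO (log2 fold change -1.91 ± 0.34 SE, adjusted p = 0.00031). Csf2, Il9, Il10 and Il17a were not analysed here.

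Genes of the tumor necrosis factor family of ligands were also lower. Ltb, which encodes lymphotoxin beta, had 31.2, 32.1, 23.7 and 24.9 TPM in iILC2 KO, against 657, 563, 563 and 569.8 TPM in nILC2 KO. No other cytokine gene in the list was as abundant in nILC2 KO, and Ltb was 21.03-fold higher there (log2 fold change -4.35 ± 0.17 SE, adjusted p = 1e-11). Lta, which encodes lymphotoxin alpha, had 0, 0.73, 0 and 0.31 TPM in iILC2 KO, against 17.1, 13.1, 13.99 and 12.9 TPM in nILC2 KO (log2 fold change -3.63 ± 0.23 SE, adjusted p = 1.8e-09). Tnf, named after its values were seen because it lies beside them, had 0.25 ± 0.219 TPM in iILC2 KO and 3.98 ± 0.702 TPM in nILC2 KO (log2 fold change -2.002 ± 0.24 SE, adjusted p = 4.6e-06). The summed level of the 15 genes was 125 ± 5.62 TPM in iILC2 KO and 799.7 ± 66.5 TPM in nILC2 KO. Ltb made up most of the nILC2 KO sum, but in iILC2 KO it was a smaller part than Il4.

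Receptors for cytokines, neuropeptides and lipid mediators fell with them. Of 23 cytokine receptor genes tested, 3 rose and 14 fell. The IL-2 receptor beta chain gene Il2rb, which also serves IL-15, rose, with 142 ± 11.4 TPM in iILC2 KO and 70.8 ± 4.34 TPM in nILC2 KO (log2 fold change 0.99 ± 0.092 SE, adjusted p = 2e-07), opposite to the alpha chain above. Tnfrsf25, the receptor for TL1A, fell, with 48.3 ± 6.42 TPM in iILC2 KO and 118 ± 12.8 TPM in nILC2 KO (log2 fold change -1.27 ± 0.11 SE, adjusted p = 1.1e-07). Of 13 receptors for neuropeptides and lipid mediators, 10 fell and none rose. Nmur1, the neuromedin U receptor by which gut neurons activate ILC2s, had 83.5, 108, 93.3 and 89.9 TPM in iILC2 KO, against 331, 270.4, 231 and 239 TPM in nILC2 KO. It was lower in every iILC2 KO library (log2 fold change -1.50 ± 0.11 SE, adjusted p = 1.3e-08). Vipr2, a receptor for vasoactive intestinal peptide, had 5.11 ± 0.525 TPM in iILC2 KO and 47.02 ± 12.04 TPM in nILC2 KO (log2 fold change -2.95 ± 0.18 SE, adjusted p = 1.6e-09). Ramp1, the partner protein of the CGRP receptor, was close to 0 in iILC2 KO, with 0.09, 0.16, 0.08 and 0.09 TPM in iILC2 KO, against 18.8, 12.7, 4.4 and 12.7 TPM in nILC2 KO (log2 fold change -3.43 ± 0.29 SE, adjusted p = 5.6e-08). Ptger2, a prostaglandin E2 receptor, had 1.49 ± 0.541 TPM in iILC2 KO and 15.7 ± 4.98 TPM in nILC2 KO (log2 fold change -2.73 ± 0.24 SE, adjusted p = 1.4e-07). Both receptor lists were summed in the plot of list levels, where the groups did not overlap.

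Trafficking genes moved in both directions. Of 25 trafficking genes tested, 8 rose, 11 fell and 6 were not called. S1pr1, the sphingosine 1-phosphate receptor that lets lymphocytes leave tissues, had 132, 122, 145 and 122 TPM in iILC2 KO, against 41.1, 66.2, 83.5 and 59.4 TPM in nILC2 KO. Klf2, the factor that drives S1pr1 in T cells, had 20.8, 17.1, 24.4 and 21.2 TPM in iILC2 KO, against 3.42, 6.26, 7.32 and 8.09 TPM in nILC2 KO. Both were higher in every iILC2 KO library (log2 fold change 1.09 ± 0.20 SE, adjusted p = 0.00038 for S1pr1 and log2 fold change 1.63 ± 0.19 SE, adjusted p = 4.5e-06 for Klf2), and nILC2 KO replicate 1 was the lowest library for both. Cd69, whose protein removes S1PR1 from the surface, fell, with 22.5 ± 6.11 TPM in iILC2 KO and 45.2 ± 12.8 TPM in nILC2 KO (log2 fold change -0.98 ± 0.20 SE, adjusted p = 0.00085). Rgs1, a brake on chemokine receptor signals in tissue-resident lymphocytes, also fell, with 53.03 ± 12.04 TPM in iILC2 KO and 220.0 ± 20.2 TPM in nILC2 KO (log2 fold change -2.05 ± 0.16 SE, adjusted p = 2.4e-08). Ccr9, the receptor for the small-intestinal chemokine CCL25, had 720.4, 705, 600.1 and 743 TPM in iILC2 KO, against 257, 302, 274 and 257 TPM in nILC2 KO (log2 fold change 1.34 ± 0.089 SE, adjusted p = 3.6e-09). Gpr15, a homing receptor for the large intestine, had 15.8 ± 2.42 TPM in iILC2 KO and 3.65 ± 1.46 TPM in nILC2 KO (log2 fold change 1.91 ± 0.36 SE, adjusted p = 0.00055). In the other direction, Ccr4 had 37.3 ± 4.397 TPM in iILC2 KO and 181 ± 30.7 TPM in nILC2 KO (log2 fold change -2.24 ± 0.11 SE, adjusted p = 1.4e-10), Ccr8 had 11.02 ± 1.67 TPM in iILC2 KO and 50.01 ± 24.2 TPM in nILC2 KO (log2 fold change -1.98 ± 0.28 SE, adjusted p = 3.3e-05) and Ccr7, the receptor for lymph node entry, had 6.64 ± 3.503 TPM in iILC2 KO and 42.8 ± 15.3 TPM in nILC2 KO (log2 fold change -2.59 ± 0.33 SE, adjusted p = 9.4e-06). Itgae, the integrin chain that binds epithelial E-cadherin, was at 5.45 ± 1.66 TPM in iILC2 KO and 4.93 ± 2.64 TPM in nILC2 KO and was not called (adjusted p = 0.62).

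Inhibitory receptors split. Of 21 inhibitory and costimulatory receptor genes tested, 3 rose and 12 fell. Ctla4 had 100.6, 84.7, 88.3 and 58.5 TPM in iILC2 KO, against 19.6, 30.6, 21.2 and 19.3 TPM in nILC2 KO, and Tigit had 86.98, 68.2, 92.2 and 83.4 TPM in iILC2 KO, against 23.2, 22.96, 26.4 and 22.9 TPM in nILC2 KO. Both rose (log2 fold change 1.83 ± 0.31 SE, adjusted p = 0.00018 for Ctla4 and log2 fold change 1.74 ± 0.12 SE, adjusted p = 5.1e-09 for Tigit). Pdcd1, which encodes PD-1, had 3.63, 0.99, 1.19 and 0.21 TPM in iILC2 KO, against 39.7, 26.4, 18.98 and 22.9 TPM in nILC2 KO and fell (log2 fold change -3.60 ± 0.32 SE, adjusted p = 1.2e-07). Cd160 had 6.49 ± 2.42 TPM in iILC2 KO and 75.1 ± 14.3 TPM in nILC2 KO (log2 fold change -3.39 ± 0.22 SE, adjusted p = 2.8e-09). Cd83, a marker of activation, had 1.23 ± 0.569 TPM in iILC2 KO and 34.8 ± 8.25 TPM in nILC2 KO (log2 fold change -4.01 ± 0.24 SE, adjusted p = 1.5e-09). The groups did not overlap for any of these 5 genes.

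Granule genes also split. Of 9 tested, 4 rose and 3 fell. Gzma, which encodes granzyme A, had 1595, 1320.1, 1477 and 2170.0 TPM in iILC2 KO, against 81.8, 199, 313 and 579 TPM in nILC2 KO. The groups did not overlap, and the nILC2 KO libraries differed widely, lowest in replicate 1 and highest in replicate 4 (log2 fold change 2.78 ± 0.41 SE, adjusted p = 4.1e-05). Nkg7, a granule membrane protein of cytotoxic cells, had 479, 529, 480.3 and 527 TPM in iILC2 KO, against 63.8, 109, 96.5 and 107 TPM in nILC2 KO (log2 fold change 2.44 ± 0.19 SE, adjusted p = 2.5e-08). Srgn, the proteoglycan that packs granule contents, was high in both groups and rose, with 1826 ± 99.4 TPM in iILC2 KO and 1143 ± 50.2 TPM in nILC2 KO (log2 fold change 0.68 ± 0.069 SE, adjusted p = 7e-07). Prf1, which encodes perforin, was low and rose, with 9.38 ± 1.13 TPM in iILC2 KO and 5.03 ± 1.12 TPM in nILC2 KO (log2 fold change 0.80 ± 0.22 SE, adjusted p = 0.0093), while Ctsw, a cathepsin of cytotoxic cells, fell, with 16.2 ± 3.22 TPM in iILC2 KO and 38.1 ± 11.2 TPM in nILC2 KO (log2 fold change -1.16 ± 0.18 SE, adjusted p = 8.9e-05). Gzmb was not analysed here.

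The genes with the largest falls were led by a lipid enzyme. Dgat2, which makes triglycerides from diglycerides, had 5.09, 6.1, 2.74 and 3.42 TPM in iILC2 KO, against 536, 372, 358 and 351 TPM in nILC2 KO. It was 93.2-fold higher in nILC2 KO (log2 fold change -6.27 ± 0.29 SE, adjusted p = 4.7e-11). Without nILC2 KO replicate 1, the remaining nILC2 KO libraries were still at 351 TPM or more. Lpcat2, an enzyme of phospholipid remodelling, had 0.603 ± 0.717 TPM in iILC2 KO and 34.9 ± 18.1 TPM in nILC2 KO, and Lilrb4a, an inhibitory receptor, had 0.772 ± 1.29 TPM in iILC2 KO and 47.1 ± 9.49 TPM in nILC2 KO. Stab2, a scavenger receptor, was at 0.91 ± 0.478 TPM in iILC2 KO and 41.6 ± 25.9 TPM in nILC2 KO, and the protease inhibitor gene Serpina3g was at 7.098 ± 5.52 TPM in iILC2 KO and 124 ± 56.3 TPM in nILC2 KO. Others among the 12 largest were the syndecan gene Sdc4 (0.465 ± 0.356 TPM in iILC2 KO and 20.1 ± 6.69 TPM in nILC2 KO), the amino acid transporter gene Slc7a8 (1.49 ± 0.374 TPM in iILC2 KO and 34.03 ± 15.3 TPM in nILC2 KO), the glycolipid enzyme gene A4galt (0.365 ± 0.485 TPM in iILC2 KO and 16.3 ± 5.05 TPM in nILC2 KO), Syne4 and Ccdc184, besides Ltb and Cd83 described above. Their log2 fold changes lay between -6.27 and -3.67, with adjusted p from 1e-11 to 1.9e-07.

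The largest rises were smaller than the largest falls. Ifi27l2a, an interferon-inducible gene, had 409, 302, 447 and 277 TPM in iILC2 KO, against 49.6, 52.2, 53.1 and 23.2 TPM in nILC2 KO (log2 fold change 3.02 ± 0.34 SE, adjusted p = 2e-06). Ms4a4b, a membrane protein gene of lymphocytes, had 430.5 ± 60.2 TPM in iILC2 KO and 73.9 ± 17.2 TPM in nILC2 KO (log2 fold change 2.54 ± 0.15 SE, adjusted p = 1.2e-09). S100a6, a calcium-binding protein gene, had 507 ± 76.95 TPM in iILC2 KO and 93.7 ± 13.1 TPM in nILC2 KO (log2 fold change 2.42 ± 0.19 SE, adjusted p = 2.4e-08). Ggt1, a glutathione-degrading enzyme gene, had 89.8 ± 18.7 TPM in iILC2 KO and 14.9 ± 4.18 TPM in nILC2 KO. Nod1, a sensor of bacterial cell wall, had 21.4 ± 1.75 TPM in iILC2 KO and 3.38 ± 0.926 TPM in nILC2 KO. Rcn3, Grb7 and Dnaaf5 were also among the 12 largest rises, as were Gzma, Nkg7 and Id3 above. Rcn3, Grb7 and Dnaaf5 had log2 fold changes of 2.52, 2.37 and 2.35. For each of the 12 every iILC2 KO library was above every nILC2 KO library, which the rule for naming them required.

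Cell division genes were higher in iILC2 KO as a block. Of 67 mitosis and cytokinesis genes tested, 51 rose and none fell (76.1%, against 13.8% of all genes), with a median log2 fold change of 0.60. Of 45 DNA replication genes, 35 rose and none fell (median 0.51). Without nILC2 KO replicate 1 these counts were 38 and 27. Single changes were modest. Cdc25b, a phosphatase that starts mitosis, had 323, 308, 359 and 370.1 TPM in iILC2 KO, against 69.7, 119, 137 and 119 TPM in nILC2 KO (log2 fold change 1.64 ± 0.17 SE, adjusted p = 6e-07). Racgap1, which organizes the cytokinetic spindle, had 175, 199.7, 202 and 171 TPM in iILC2 KO, against 49.2, 90.4, 124 and 68.3 TPM in nILC2 KO (log2 fold change 1.24 ± 0.22 SE, adjusted p = 0.00026). Ccnf, which encodes cyclin F, had 39.1 ± 3.595 TPM in iILC2 KO and 17.3 ± 2.36 TPM in nILC2 KO (log2 fold change 1.14 ± 0.15 SE, adjusted p = 1.7e-05). Ccnb2, which encodes cyclin B2, had 328 ± 6.99 TPM in iILC2 KO and 159 ± 20.97 TPM in nILC2 KO (log2 fold change 1.05 ± 0.10 SE, adjusted p = 5.1e-07). Mki67, the gene of the proliferation marker Ki-67, had 37.3, 37.8, 36.9 and 33.8 TPM in iILC2 KO, against 16.4, 21.7, 23.7 and 16.6 TPM in nILC2 KO (log2 fold change 0.88 ± 0.14 SE, adjusted p = 0.00013). Top2a, a topoisomerase of dividing cells, was at 96.3 ± 9.18 TPM in iILC2 KO and 63.8 ± 9.29 TPM in nILC2 KO (log2 fold change 0.59 ± 0.13 SE, adjusted p = 0.0014). For most of these genes nILC2 KO replicate 1 was the lowest library and replicate 3 the highest of its group. Both groups held substantial levels: the 67 genes summed to 6402 ± 222 TPM in iILC2 KO and 4091 ± 656 TPM in nILC2 KO, and the 45 replication genes to 6816 ± 289 TPM in iILC2 KO and 4846 ± 782 TPM in nILC2 KO.

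**Figure D3:**
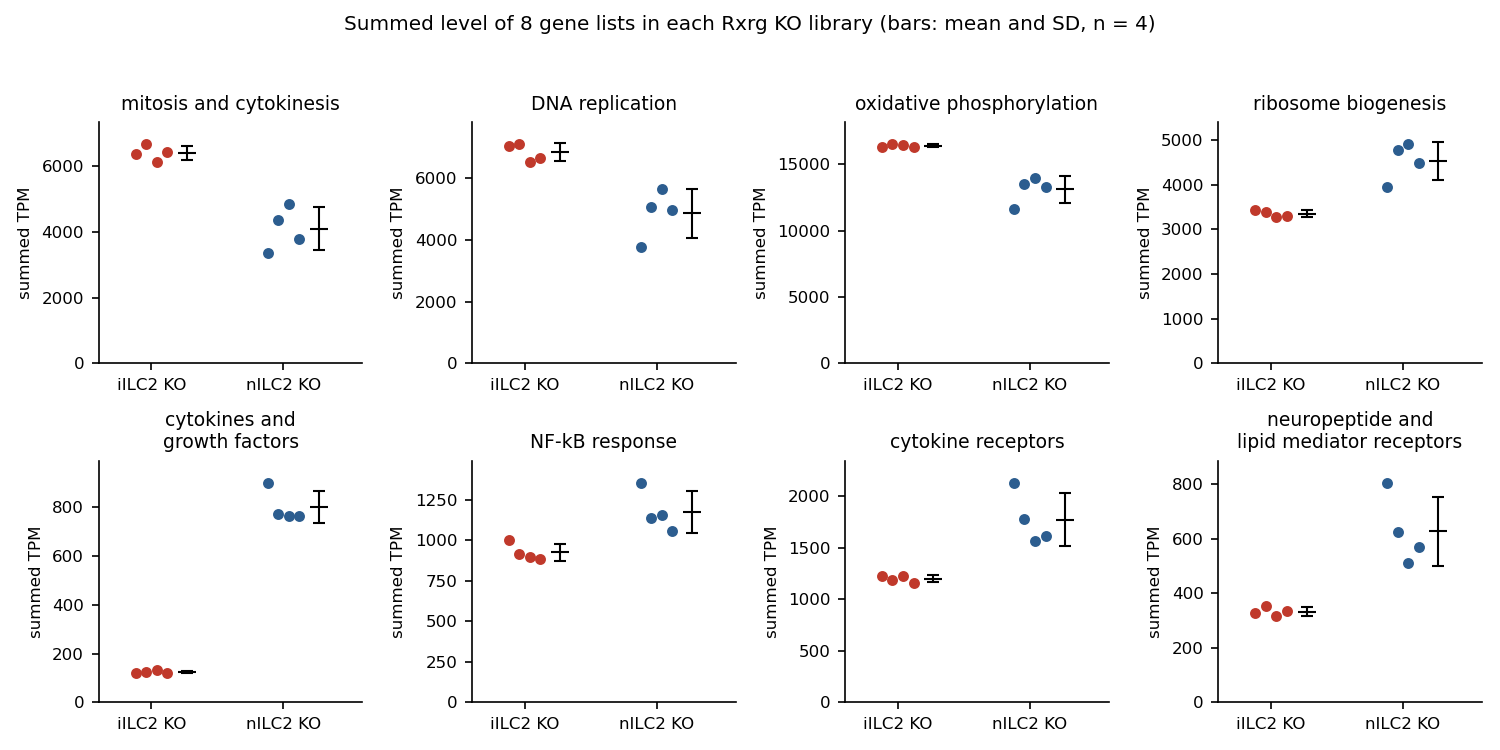
Summed TPM (linear axis from 0) of the listed members of 8 gene lists in each of the 4 iILC2 KO libraries (left, red) and 4 nILC2 KO libraries (right, blue), with the mean and SD beside the points. Mitosis, DNA replication and oxidative phosphorylation sums were higher in every iILC2 KO library than in any nILC2 KO library, and the other 5 sums were lower.

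Among replication genes, Cdt1, which licenses origins, had 145, 167, 137 and 146 TPM in iILC2 KO, against 61.4, 85.6, 109 and 88.4 TPM in nILC2 KO (log2 fold change 0.81 ± 0.14 SE, adjusted p = 0.00017). Uhrf1, which maintains DNA methylation behind the fork, had 167 ± 8.31 TPM in iILC2 KO and 107 ± 19.7 TPM in nILC2 KO (log2 fold change 0.65 ± 0.13 SE, adjusted p = 7e-04). Rrm2, a subunit of ribonucleotide reductase, had 602 ± 30.2 TPM in iILC2 KO and 370.1 ± 94.7 TPM in nILC2 KO (log2 fold change 0.74 ± 0.16 SE, adjusted p = 0.0019). Mcm3, a subunit of the replicative helicase, had 359 ± 5.65 TPM in iILC2 KO and 239 ± 47.6 TPM in nILC2 KO (log2 fold change 0.61 ± 0.14 SE, adjusted p = 0.0026) and is named because its promoter is shown. Of 23 genes of replication-linked repair, 17 rose and 1, Atr, fell. Brip1, a helicase of that group, had 11.1 ± 1.52 TPM in iILC2 KO and 5.12 ± 0.954 TPM in nILC2 KO (log2 fold change 0.99 ± 0.17 SE, adjusted p = 0.00022). Of 16 G1 cyclins and partners, 7 rose (43.8%) and 2 fell (12.5%). E2f2, a factor of S phase entry, had 23.4 ± 0.744 TPM in iILC2 KO and 10.1 ± 2.703 TPM in nILC2 KO (log2 fold change 1.17 ± 0.21 SE, adjusted p = 3e-04). Cdk6, a kinase of early G1, fell, with 15.3 ± 2.93 TPM in iILC2 KO and 39.4 ± 4.21 TPM in nILC2 KO (log2 fold change -1.32 ± 0.19 SE, adjusted p = 4e-05). The other that fell, Ccnd2, was at 51.9 ± 37.8 TPM in iILC2 KO and 99.04 ± 23.1 TPM in nILC2 KO (adjusted p = 0.026) and was not called without iILC2 KO replicate 1, iILC2 KO replicate 3 or nILC2 KO replicate 1 (adjusted p 0.075 to 0.10). Of 23 cell cycle inhibitor and quiescence genes, 5 rose (21.7%) and 4 fell (17.4%), against 13.8% and 17.6% of all genes. Cdkn2d, an inhibitor of CDK4 and CDK6, rose, with 55.7 ± 2.12 TPM in iILC2 KO and 34.4 ± 7.58 TPM in nILC2 KO (log2 fold change 0.71 ± 0.15 SE, adjusted p = 0.0013). Btg1, an antiproliferative gene, fell, with 10.3 ± 0.768 TPM in iILC2 KO and 25.6 ± 6.83 TPM in nILC2 KO (log2 fold change -1.20 ± 0.16 SE, adjusted p = 1.8e-05). Cdkn1a and Cdkn1b, named after their values were seen, were not called (adjusted p = 0.94 and 0.46).

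Some promoters of these genes carry elements known from cell cycle control. A pair from each of the mitosis and replication lists is shown to let the elements be seen. Each pair was taken from members called higher whose promoter holds the searched word. The sequences are RefSeq's, GRCm38.p6, 250 bases before to 50 after a gene start, written 5′ to 3′ on the gene's strand. Capitals in Cdc25b and Ccnf mark the cell cycle genes homology region (CHR), searched as TTTGAA or TTCGAA, and capitals in Cdt1 and Mcm3 mark E2F elements, searched as TTTCGCGC, TTTGGCGC, TTTCCCGC or TTTGCCGC, each on both strands. Cdc25b lies at chr2:131186698-131186997 on the plus strand, Ccnf at chr17:24251360-24251659 on the minus strand, Cdt1 at chr8:122567765-122568064 on the plus strand and Mcm3 at chr1:20820263-20820562 on the minus strand.
Cdc25b: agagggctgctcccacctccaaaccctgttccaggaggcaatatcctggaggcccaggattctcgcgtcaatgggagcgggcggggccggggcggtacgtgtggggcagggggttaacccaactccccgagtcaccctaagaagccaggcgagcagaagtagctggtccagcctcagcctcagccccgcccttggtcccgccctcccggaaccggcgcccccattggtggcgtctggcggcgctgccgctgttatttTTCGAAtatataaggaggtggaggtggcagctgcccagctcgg
Ccnf: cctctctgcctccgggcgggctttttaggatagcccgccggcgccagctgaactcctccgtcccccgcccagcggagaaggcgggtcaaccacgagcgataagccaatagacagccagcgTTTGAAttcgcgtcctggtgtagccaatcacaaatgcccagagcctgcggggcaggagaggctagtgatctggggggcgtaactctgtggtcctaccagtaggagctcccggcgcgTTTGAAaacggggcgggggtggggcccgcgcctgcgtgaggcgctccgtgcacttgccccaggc
Cdt1: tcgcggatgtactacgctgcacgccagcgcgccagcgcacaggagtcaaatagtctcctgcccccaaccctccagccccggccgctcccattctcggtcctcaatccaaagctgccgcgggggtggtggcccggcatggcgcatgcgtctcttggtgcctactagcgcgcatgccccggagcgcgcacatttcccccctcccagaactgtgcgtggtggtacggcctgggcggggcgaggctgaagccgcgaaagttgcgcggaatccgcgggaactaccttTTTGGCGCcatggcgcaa
Mcm3: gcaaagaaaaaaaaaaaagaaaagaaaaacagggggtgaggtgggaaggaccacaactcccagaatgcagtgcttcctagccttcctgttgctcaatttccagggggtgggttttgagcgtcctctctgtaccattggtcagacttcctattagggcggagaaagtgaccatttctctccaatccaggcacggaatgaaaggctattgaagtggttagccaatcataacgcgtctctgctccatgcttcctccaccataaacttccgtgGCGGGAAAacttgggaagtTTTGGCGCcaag

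RefSeq promoters were matched for 58 of the 67 mitosis genes and 37 of the 45 replication genes. A CHR word was found in 80.3% of the 61 mitosis promoters and in 80.9% of those of called members, against 14.4% of the 10408 promoters of all genes tested and 19.2% of all 32851 in the table. For E2F words the share was 40.5% of the 42 replication promoters and 36.4% of the 33 promoters of called members. It was 4.19% of promoters of genes tested and 2.26% of all. DR1, the repeat of AGGTCA with 1 base of any kind between that RXR and PPAR pairs can bind, searched on both strands, was found in none of the mitosis or replication promoters and in 0.0384% of promoters of genes tested. A word match is a description of these windows only.

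Genes of ribosome production went the opposite way to cell division. Of 29 ribosome biogenesis genes tested, 20 fell and none rose (median log2 fold change -0.65), and 22 fell without nILC2 KO replicate 1. Myc, which drives growth and ribosome production, had 14.6, 15.2, 11.7 and 12.9 TPM in iILC2 KO, against 41.04, 39.1, 36.6 and 38.8 TPM in nILC2 KO and fell (log2 fold change -1.45 ± 0.16 SE, adjusted p = 1.3e-06). Mybbp1a, a nucleolar protein gene, had 21.1, 21.8, 23.6 and 23.3 TPM in iILC2 KO, against 53.6, 67.5, 63.7 and 63.2 TPM in nILC2 KO (log2 fold change -1.42 ± 0.11 SE, adjusted p = 1.5e-08). Gnl3, which encodes nucleostemin, had 13.2 ± 4.35 TPM in iILC2 KO and 32.8 ± 9.21 TPM in nILC2 KO (log2 fold change -1.27 ± 0.21 SE, adjusted p = 0.00014). Nop16 had 18.9 ± 2.08 TPM in iILC2 KO and 41.4 ± 6.93 TPM in nILC2 KO (log2 fold change -1.08 ± 0.14 SE, adjusted p = 9.9e-06). Of the summed levels of the list, the lowest nILC2 KO sum was that of replicate 1 and still exceeded every iILC2 KO sum (3354 ± 76.3 TPM in iILC2 KO and 4536 ± 424 TPM in nILC2 KO).

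Nuclear-encoded oxidative phosphorylation genes rose on the TPM scale. Of 32 tested, 23 rose and none fell (median 0.26), but under quantile normalization 6 rose and 2, Cyc1 and Ndufs3, fell. Ndufa1 and Ndufa4, which encode complex I and complex IV associated subunits, had 608 ± 39.7 TPM in iILC2 KO and 418 ± 37.04 TPM in nILC2 KO for Ndufa1 and 1314 ± 38.2 TPM in iILC2 KO and 918 ± 87.96 TPM in nILC2 KO for Ndufa4, and both were also higher under quantile normalization (log2 fold change 0.54 ± 0.082 SE, adjusted p = 5.8e-05 and log2 fold change 0.52 ± 0.065 SE, adjusted p = 8e-06 on the TPM scale). Cox6c, a complex IV subunit gene, was at 962 ± 24.2 TPM in iILC2 KO and 698 ± 13.7 TPM in nILC2 KO (log2 fold change 0.46 ± 0.055 SE, adjusted p = 4.5e-06) and was not called under quantile normalization (adjusted p = 0.13). No mitochondrially encoded gene was listed.

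Other metabolic groups moved less as groups. Of 23 glycolysis genes tested, 3 rose (13%) and 5 fell (21.7%), near the 13.8% and 17.6% of all genes. Only 2 or 3 fell without iILC2 KO replicate 1 or 4 or without nILC2 KO replicate 1, 2 or 4. Ldha, the lactate-forming enzyme gene, was high in both groups, at 2007 ± 102 TPM in iILC2 KO and 2058 ± 312 TPM in nILC2 KO (adjusted p = 0.87). Of 20 genes of serine, one-carbon and amino acid supply, 1 rose (5%) and 6 fell (30%). Slc3a2, the heavy chain of amino acid transporters, had 63.2 ± 3.502 TPM in iILC2 KO and 131 ± 14.1 TPM in nILC2 KO (log2 fold change -1.04 ± 0.083 SE, adjusted p = 3.1e-08). Shmt1, a one-carbon enzyme gene, had 11.1 ± 1.304 TPM in iILC2 KO and 27.3 ± 10.4 TPM in nILC2 KO (log2 fold change -1.16 ± 0.23 SE, adjusted p = 0.00079). Of 20 nucleotide synthesis genes, 4 rose (20%) and 8 fell (40%), or 5 without iILC2 KO replicate 4 or without nILC2 KO replicate 2. The purine synthesis genes Gart and Atic fell, with 43.1 ± 9.27 TPM in iILC2 KO and 76.9 ± 12.7 TPM in nILC2 KO for Gart (adjusted p = 0.00031) and 18.5 ± 1.69 TPM in iILC2 KO and 31.2 ± 2.91 TPM in nILC2 KO for Atic (adjusted p = 0.00053). Of 10 arginine and polyamine genes, 4 rose and 5 fell, or 3 without iILC2 KO replicate 2 or 4 or without nILC2 KO replicate 3. Ass1, which makes the arginine precursor, had 232, 235, 212 and 251 TPM in iILC2 KO, against 51.2, 73.5, 64.5 and 81.5 TPM in nILC2 KO (log2 fold change 1.78 ± 0.15 SE, adjusted p = 8.1e-08). Arg1, which consumes arginine, had 45.6, 37.2, 18.8 and 30.4 TPM in iILC2 KO, against 348, 267, 94.1 and 205 TPM in nILC2 KO (log2 fold change -2.67 ± 0.32 SE, adjusted p = 4.4e-06). The groups did not overlap for either gene, so Ass1 and Arg1 moved in opposite directions.

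Lipid genes were examined since RXR partners regulate them. Of 25 genes of fatty acid uptake, storage and synthesis, 5 rose (20%) and 7 fell (28%), against 13.8% and 17.6% of all genes. Only 4 fell without iILC2 KO replicate 4. Dgat2 was far ahead of the rest of the list. Agpat4, an acyltransferase of phospholipid synthesis, rose, with 53.5 ± 2 TPM in iILC2 KO and 26.6 ± 3.98 TPM in nILC2 KO (log2 fold change 0.995 ± 0.13 SE, adjusted p = 1.5e-05), as did Cpt1a, which admits fatty acids to mitochondria (54.03 ± 2.97 TPM in iILC2 KO and 30.2 ± 3.03 TPM in nILC2 KO, log2 fold change 0.82 ± 0.11 SE, adjusted p = 1.7e-05). Elovl5, a fatty acid elongase, fell, with 141 ± 4.43 TPM in iILC2 KO and 240.4 ± 53.6 TPM in nILC2 KO (log2 fold change -0.74 ± 0.11 SE, adjusted p = 5.5e-05). Of 23 cholesterol synthesis genes, 5 rose (21.7%) and none fell, while 9 rose without nILC2 KO replicate 3 and 3 without nILC2 KO replicate 4. Stard4, a sterol carrier, had 22.8 ± 3.08 TPM in iILC2 KO and 12.8 ± 1.74 TPM in nILC2 KO (log2 fold change 0.79 ± 0.19 SE, adjusted p = 0.0044). Ebp had 100.6 ± 7.45 TPM in iILC2 KO and 65.3 ± 5.29 TPM in nILC2 KO (log2 fold change 0.62 ± 0.11 SE, adjusted p = 3e-04). Of 11 LXR target and efflux genes, 1 rose (9.09%) and 2 fell (18.2%), near the 13.8% and 17.6% of all genes. Only 1 fell without iILC2 KO replicate 1 or without nILC2 KO replicate 2. Abcg1, the sterol exporter, had 13.7, 14.8, 13.2 and 13.8 TPM in iILC2 KO, against 35.9, 27.6, 26.7 and 24.4 TPM in nILC2 KO and fell (log2 fold change -0.99 ± 0.13 SE, adjusted p = 1.3e-05), while Npc2, a lysosomal sterol carrier, had 79.7 ± 4.37 TPM in iILC2 KO and 54.8 ± 6.36 TPM in nILC2 KO and rose (log2 fold change 0.54 ± 0.098 SE, adjusted p = 0.00037). Abca1 did not pass the filter on low values.

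Among retinoid X receptors and their partners, 1 of 15 rose and 7 fell. Rxra and Rxrb, the other receptors of the family, were at 1.45 ± 0.633 TPM in iILC2 KO and 2.29 ± 0.625 TPM in nILC2 KO for Rxra and 9.23 ± 1.21 TPM in iILC2 KO and 10.7 ± 2.77 TPM in nILC2 KO for Rxrb, and neither was called (adjusted p = 0.11 and 0.50), although Rxra was called lower without nILC2 KO replicate 2 (adjusted p = 0.039). They are named here, after their values were seen, since they could pair with the same partners. Pparg, a partner that ILC2s use for lipid storage, was at 8.64 ± 1.92 TPM in iILC2 KO and 13.5 ± 3.83 TPM in nILC2 KO, with adjusted p = 0.048. It was not called without iILC2 KO replicate 1, 3 or 4 or nILC2 KO replicate 1, 2 or 4 (adjusted p 0.066 to 0.13). Nr4a1, an orphan receptor induced by activation, had 5.2, 2.49, 4.65 and 3.36 TPM in iILC2 KO, against 57.1, 30.8, 44.1 and 48.6 TPM in nILC2 KO and had the largest fall of the list (log2 fold change -3.23 ± 0.26 SE, adjusted p = 2.9e-08).

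Signalling targets of activation fell broadly. Of 19 NF-kB response genes tested, 1 rose and 13 fell (median -1.10), and 12 fell without nILC2 KO replicate 1. Nfkb2 and Relb, which form the dimer of the noncanonical pathway, had 11.5, 8.97, 9.67 and 9.27 TPM in iILC2 KO, against 60.8, 47.97, 44.7 and 49.9 TPM in nILC2 KO for Nfkb2 and 4.08, 3.1, 5.96 and 3.15 TPM in iILC2 KO, against 40.1, 24.2, 23.9 and 20.4 TPM in nILC2 KO for Relb. Both fell (log2 fold change -2.25 ± 0.12 SE, adjusted p = 2.9e-10 and log2 fold change -2.46 ± 0.21 SE, adjusted p = 9.8e-08). Nfkbia, the inhibitor gene that NF-kB itself induces, had 164 ± 27.3 TPM in iILC2 KO and 394 ± 70.4 TPM in nILC2 KO (log2 fold change -1.26 ± 0.12 SE, adjusted p = 4.3e-07). Traf1 had 18.6 ± 5.79 TPM in iILC2 KO and 65.4 ± 19.3 TPM in nILC2 KO (log2 fold change -1.77 ± 0.26 SE, adjusted p = 4.7e-05). The gene that rose was Nfkb1, the canonical subunit, named after its values were seen (479 ± 62.2 TPM in iILC2 KO and 269 ± 11.4 TPM in nILC2 KO, log2 fold change 0.82 ± 0.096 SE, adjusted p = 3.4e-06). Of 19 immediate early and stress genes, 1 rose and 9 fell, and of those that fell Jun had 3.09 ± 1.85 TPM in iILC2 KO and 17.4 ± 2.03 TPM in nILC2 KO (log2 fold change -2.26 ± 0.22 SE, adjusted p = 4.2e-07) and Junb had 77.8 ± 12.2 TPM in iILC2 KO and 178 ± 25.7 TPM in nILC2 KO (log2 fold change -1.18 ± 0.15 SE, adjusted p = 8.1e-06).

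Of 19 JAK, STAT and SOCS genes, 8 fell and none rose. Cish, a feedback inhibitor that STAT5 induces, had 5.53, 2.61, 4.7 and 1.34 TPM in iILC2 KO, against 47.2, 35, 37.4 and 39.5 TPM in nILC2 KO (log2 fold change -3.27 ± 0.26 SE, adjusted p = 3.2e-08). Socs2, another such inhibitor, had 1.605 ± 1.105 TPM in iILC2 KO and 14.9 ± 8.398 TPM in nILC2 KO (log2 fold change -2.55 ± 0.38 SE, adjusted p = 4.7e-05), and the kinase gene Pim2 had 27.8 ± 3.101 TPM in iILC2 KO and 125 ± 8.29 TPM in nILC2 KO (log2 fold change -2.13 ± 0.18 SE, adjusted p = 6.4e-08). Of 30 interferon response genes, 1 rose and 12 fell, among them Gbp2 with 14.7 ± 2.58 TPM in iILC2 KO and 47.3 ± 18.8 TPM in nILC2 KO (log2 fold change -1.57 ± 0.20 SE, adjusted p = 9.4e-06), whereas Ifi27l2a above rose. The unfolded protein response was represented by 23 genes, of which 6 rose (26.1%) and 2 fell (8.7%), against 13.8% and 17.6% of all genes. Under quantile normalization, however, 1 rose and 3 fell. Of 19 genes of the BCL-2 family and cell death, 2 rose (10.5%) and 5 fell (26.3%), against 13.8% and 17.6% of all genes. Bcl2, the survival gene that IL-7 signals maintain, had 4.31, 2.36, 4.21 and 3.67 TPM in iILC2 KO, against 40.01, 29.3, 26.4 and 29.5 TPM in nILC2 KO (log2 fold change -2.81 ± 0.17 SE, adjusted p = 1.7e-09).

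Markers of other cell types were few and moved in both directions. In bulk libraries fewer cells of a type and less RNA per cell cannot be told apart. Of 16 T cell markers 6 had values, and all 6 fell. Their summed level was 38.9 to 66.1 TPM in iILC2 KO and 98.3 to 192 TPM in nILC2 KO. Cd6 had 1.47, 0.53, 0.09 and 0.41 TPM in iILC2 KO, against 25.5, 15.6, 13.8 and 16.5 TPM in nILC2 KO (log2 fold change -3.56 ± 0.25 SE, adjusted p = 5.8e-09). Lat, a signalling adaptor and the most abundant, had 26.6 ± 3.901 TPM in iILC2 KO and 63.9 ± 13.6 TPM in nILC2 KO (log2 fold change -1.22 ± 0.16 SE, adjusted p = 1.8e-05). Cd3g, an antigen receptor chain, was at 22.7 ± 8.52 TPM in iILC2 KO and 54.4 ± 27.6 TPM in nILC2 KO (adjusted p = 0.025) and was not called without iILC2 KO replicate 4 or nILC2 KO replicates 1 or 2 (adjusted p 0.073 to 0.098). Of 12 ILC3 markers 6 had values and all 6 fell. Their sum was 123 to 182 TPM in iILC2 KO and 872 to 1156 TPM in nILC2 KO. Ltb made up most of the nILC2 KO sum, while Tmem176b and Tmem176a were the larger parts of the iILC2 KO sum. Tmem176b had 65.2 ± 15.5 TPM in iILC2 KO and 214 ± 33.5 TPM in nILC2 KO (log2 fold change -1.71 ± 0.15 SE, adjusted p = 7e-08). Nrp1 had 0.28 ± 0.2202 TPM in iILC2 KO and 14.6 ± 6.41 TPM in nILC2 KO (log2 fold change -3.54 ± 0.24 SE, adjusted p = 3.7e-09). Ltb, Lta and Nrp1 are also expressed by subsets of other lymphoid cells. The part of T cell or ILC3 transcripts in the lower cytokine, receptor and NF-kB genes of iILC2 KO was not tested.

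Of 13 NK cell and ILC1 markers 4 had values, of which Prf1 rose, Cd160 fell and 2 were not called (median log2 fold change 0.34). A block on the replicate number gave 2 that rose. The list had a sum of 19.3 to 27.7 TPM in iILC2 KO and 75.1 to 110.5 TPM in nILC2 KO, most of the nILC2 KO sum being Cd160. Of 21 markers of macrophages, dendritic cells and neutrophils 7 had values, 2 of which rose and 2 fell. Itgam had 3.79, 2.94, 3.66 and 5.48 TPM in iILC2 KO, against 0.15, 0.09, 0.16 and 0.04 TPM in nILC2 KO (log2 fold change 2.14 ± 0.18 SE, adjusted p = 5.6e-08). Cd74, a chaperone of MHC class II, had 43.8 ± 15.9 TPM in iILC2 KO and 129.5 ± 29.1 TPM in nILC2 KO (log2 fold change -1.60 ± 0.32 SE, adjusted p = 0.00088). The MHC class II genes of the list that had values were not called (adjusted p = 0.75 for each). The only B cell marker of 12 with values was Cd79b, with 240.2, 254, 243 and 232 TPM in iILC2 KO, against 126, 131, 134 and 125 TPM in nILC2 KO, higher in every iILC2 KO library (log2 fold change 0.90 ± 0.078 SE, adjusted p = 9.4e-08). None of 16 mast cell, basophil and eosinophil markers had a value. Gut epithelium was represented by Epcam, with 3.54 ± 1.23 TPM in iILC2 KO and 9.96 ± 2.76 TPM in nILC2 KO (log2 fold change -1.28 ± 0.23 SE, adjusted p = 0.00036) and by Krt18, with 7.09 ± 1.2 TPM in iILC2 KO and 5.08 ± 1.14 TPM in nILC2 KO, which was not called (adjusted p = 0.12) except under quantile normalization (adjusted p = 0.026). Red blood cells were represented by Hba-a1, with 38.6 ± 6.79 TPM in iILC2 KO and 44.03 ± 14.7 TPM in nILC2 KO (adjusted p = 0.69). Hba-a1 has a near-identical copy, so its level is uncertain. The part of these cells in the results was not tested.

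The same comparison in WT mice asks whether the difference between iILC2 and nILC2 depends on Rxrg. The iILC2 CTRL and nILC2 CTRL libraries are separate from the KO libraries. Summed Y-linked transcripts were near 0 only in replicate 2 of both CTRL groups (0 and 0.59 TPM). The other CTRL libraries, replicate 1 included, had 94.9 to 142 TPM, so the genotypes were not balanced in this respect. With a covariate for Y-linked genes the difference of effects was called for 5 genes. Among the 713 genes called and at least 2-fold apart in KO, 711 had the same direction in CTRL and 686 were called there. The exceptions in direction, Aif1l and Ribc1, were higher in iILC2 KO and not called in CTRL (adjusted p = 0.80 and 0.75), and they are named after their values were seen. The absolute log2 difference between the cell types was smaller in KO than in CTRL for 543 of the 713 genes, which were 156 of the 208 higher and 387 of the 505 lower genes. The median of the KO change divided by the CTRL change was 0.834. The number of calls was also lower, with 1391 higher and 1770 lower in KO, against 2204 (21.9%) higher and 2378 (23.6%) lower in CTRL.

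**Figure D4:**
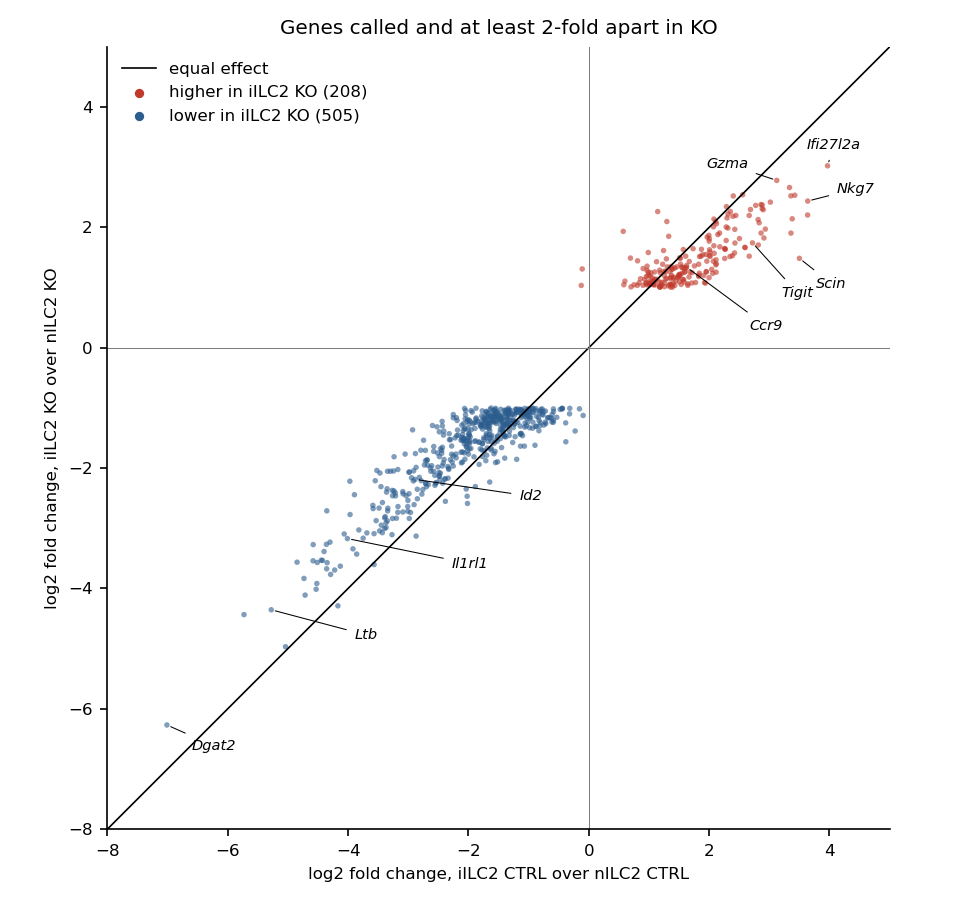
Log2 fold change of iILC2 over nILC2 in KO (vertical axis) against that in CTRL (horizontal axis) for the 713 genes called and at least 2-fold apart in KO, with the line of equal effect. Most points lie between that line and the horizontal axis, 543 of the 713 having the smaller absolute change in KO.

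Tested gene by gene, the difference between the KO and the CTRL effect was called for none of the 10069 genes in limma, where the smallest adjusted p was 0.0605, and 1059 genes (10.5%) had an unadjusted p under 0.05. That count of none depended on the libraries and on the pairing. With same-numbered libraries paired within a genotype 8 genes were called, Scin, Ceacam1, Tigit, Id2, H2-Q7, Nkg7, Clnk and Tex9, named after their values were seen, and all 8 had the smaller absolute effect in KO. In that fit Id2 changed by -2.19 in KO and -2.89 in CTRL (difference 0.70 ± 0.10 SE, adjusted p = 0.03), Tigit by 1.74 in KO and 2.72 in CTRL (difference -0.98 ± 0.14 SE, adjusted p = 0.03), and Scin, which encodes an actin-severing protein, by 1.49 in KO and 3.50 in CTRL (difference -2.02 ± 0.24 SE, adjusted p = 0.011). Ceacam1 went in opposite directions, 0.94 in KO and -0.99 in CTRL. Without nILC2 KO replicate 1 the count was 132, of which 125 had the smaller absolute effect in KO, whatever its direction. Some of the 125 went in opposite directions, Ceacam1 among them (0.932 in KO and -0.995 in CTRL). Without iILC2 CTRL replicate 2 the count was 2, and without nILC2 CTRL replicate 2 it was 5.

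Replicate 1 was the nILC2 KO library farthest from iILC2 KO for 442 of the 713 genes (62.0%), where the others were so for 79, 92 and 100 genes. Without it, 564 of the 713 genes (79.1%) had the smaller absolute effect in KO, and the median of the KO change over the CTRL change was 0.781. Id2 shows the pattern, with 113 ± 15.8 TPM in iILC2 KO and 519 ± 105 TPM in nILC2 KO, beside 101.0 ± 4.799 TPM in iILC2 CTRL and 755 ± 59.6 TPM in nILC2 CTRL.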

How the data were processed

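The values are TPM per gene as the authors deposited them, in 1 table of 16 libraries. Among tools, the submitters' processing notes name STAR 2.7.5c, RSEM 1.3.3 and cutadapt 2.10, and the build they name is mm10. No filter on genes is stated. TPM keep no read total, so depth is unknown and no counting error could be given. The table of cultured cells was not used here.

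Libraries were grouped by title and genotype label. limma 3.58.1 in R 4.3.3 (lmFit, eBayes with trend) was fitted on log2(TPM + 1) with 1 mean for each of 4 groups, for genes at 1 TPM or more in at least 4 of 16 libraries, and the Benjamini-Hochberg adjustment ran over the 10069 genes tested. The fit was tested on simulated data. The difference of effects between KO and CTRL was a contrast of that fit. Rxrg was compared by a two-sided exact permutation test.

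Of the labels' replicate numbers it is not said whether they pair libraries. Deviations of same-numbered iILC2 KO and nILC2 KO libraries from their group means correlated across genes at r = 0.188, 0.102, 0.231 and 0.145. Between libraries of other numbers r was -0.174 to 0.061. Since every same-numbered value was above 0.1, the numbers were taken to pair the libraries. The main fit left the pairing out. A paired fit (1 term per genotype and number) was run as an alternative, chosen after seeing the data. Other alternatives were a pseudocount of 0.1 TPM, no filter, a filter of 5 TPM, median of ratios, quantile normalization, a block on the number, a fit without the CTRL libraries, array weights, a Y-linked covariate, and leaving out each library.

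Named genes were Rxrg, 43 key genes, the 12 largest rises and 12 largest falls (called, mean of 10 TPM or more in the higher group, no overlap, no unnamed models or pseudogenes), up to 6 called members of each of 41 lists, and detected markers of other cells. A rule for the 6 largest differences of effect in each direction found no called gene. Not every gene so covered is named, some being not reported here, and genes outside it are marked in the text or are members whose call or promoter is at issue. The members and lists were chosen with earlier results of these data known. Promoters and coordinates are from RefSeq, GRCm38.p6, the assembly of mm10, and 10139 of 10176 symbols had coordinates. Of 120 pairs of libraries none held identical values.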

Additional observations from a re-analysis of the deposited data

Results flagged for a closer look

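Among 304 groups of 4 libraries, that is, the genes named in the text in iILC2 KO and in nILC2 KO, 24 held 1 library set apart from the other 3 by Dixon's ratio at the 95% level, where chance flags about 1 group in 20. In 9 of the 24 that library was nILC2 KO replicate 1. It was high for Dgat2 (536 TPM, others 351 to 372), Ltb (657, others 563 to 569.8), Id2 (675, others 446 to 483), Ccr4 (226, others 161 to 171), Serpina3g (208, others 88.4 to 100.85), Syne4 (128, others 65.0 to 74.5), Cd160 (96.5, others 66.3 to 68.9) and Gbp2 (75.4, others 35.3 to 39.6), and low for Ccnf (13.8, others 18.3 to 18.6).

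Single nILC2 KO libraries were also apart for Dnaaf5 (22.7 TPM in replicate 2, others 11.3 to 12.4), Ctla4 (30.6 in replicate 2, others 19.3 to 21.2), Tigit (26.4 in replicate 3, others 22.9 to 23.2), Atic (26.9 in replicate 3, others 32.5 to 32.9), Ifi27l2a (23.2 in replicate 4, others 49.6 to 53.1) and Junb (216 in replicate 4, others 162 to 167). In iILC2 KO, replicate 2 was high for Uhrf1 (179 TPM, others 161 to 164), Gart (57.0, others 37.5 to 39.7), Lilrb4a (2.7, others 0 to 0.26), Ceacam1 (2.49, others 0.92 to 1.16) and Ramp1 (0.16, others 0.08 to 0.09). Replicate 4 of iILC2 KO was high for Batf (259 TPM, others 233 to 237), Ebp (112, others 96.4 to 97.4), Jun (5.86, others 2.12 to 2.21) and Ccdc184 (0.07, others at 0). Every one of these genes was called between the groups with all libraries, and none of them lost its call when any 1 library was left out.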

How the results depend on the processing

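Of 3161 genes called between iILC2 KO and nILC2 KO, the alternatives gave 2799 (quantile normalization) to 3385 (replicate block). Leaving out 1 KO library gave 2736 to 3206 and leaving out 1 CTRL library gave 3061 to 3278. Genes higher were 44.0% of calls on the deposited TPM, 50.4% by median of ratios and 50.2% under quantile normalization, where the median log2 fold change over all genes was 0.027, against -0.045 on the deposited TPM. With same-numbered libraries paired by genotype and number, the count was 3353, of which 3024 were shared with the unpaired fit, and of the named genes only Rora changed its call. The number of genes whose difference between cell types differed by genotype was 0 in the main comparison, 1 under quantile normalization, 21 with array weights, 8 with the replicate block, 8 with the block by genotype and number, 5 with the Y-linked covariate, and 0 to 132 when 1 library was left out. The cause was not tested. The Rxrg difference ranged from -2.21 to -1.59 TPM when 1 library was left out, with exact permutation p = 0.0571 without any 1 iILC2 KO library and 0.0286 without any 1 nILC2 KO library. Oxidative phosphorylation genes called higher numbered 6 under quantile normalization, against 23 on deposited TPM. Of the called genes named, none changed its direction under these alternatives. Low TPM and the unknown depth limit genes near 0, for which counting error could not be given.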
